A study of Rattus norvegicus with 4 samples.

Results

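Rnf2 and 8 partner genes of the Polycomb repressive complexes were followed in ribosome footprints of rat cardiomyocytes after knockdown of Cpeb4. The 9 genes were Rnf2, Ring1, Bmi1, Cbx8, Rybp, Ezh1, Ezh2, Eed and Suz12. They were found by an exact match of the gene symbol, and all 9 occurred once among the 22250 genes of the deposited tables. The set was put together around Rnf2, which had been picked by its rise in the same comparison of Cpeb4 siRNA with control siRNA. Values of the 9 genes in that comparison are therefore a description and support nothing by themselves. Their p-values are not given, and where their calls are counted, nothing is read from the count.

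Polycomb proteins silence genes by modifying histones. In Polycomb repressive complex 1 (PRC1), RNF2 (also called RING1B) or its paralogue RING1 attaches ubiquitin to histone H2A, together with a PCGF protein such as BMI1. In Polycomb repressive complex 2 (PRC2), EZH1 or EZH2 methylates lysine 27 of histone H3, held by the scaffold SUZ12 and by EED, which binds the finished mark. In the heart these complexes are known for keeping progenitor and non-cardiac programmes off as muscle cells mature.

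The cells were ventricular cardiomyocytes from Wistar rats aged 1 to 2 days, purified on a Percoll gradient after trypsin digestion. One group had received a control siRNA and the other an siRNA against Cpeb4, a protein that binds cytoplasmic polyadenylation elements of mRNAs, for 72 h, with 2 libraries in each. Footprints came from RNase I digestion of sucrose gradient fractions, although the label of the RNA reads polyA. The growth protocol, shared by all 4 samples, also names the mTORC1 inhibitor Torin1 at 250 nM for 24 h, without saying which cells were exposed. The labels do not state whether replicates were separate cultures, so every p-value and SD here reflects only the spread between these libraries, which may be technical.

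Gene counts per library ranged from 3554011 to 5910911. Cpeb4 itself, which checks the labels, had 59.9 and 71.2 CPM (footprint counts divided by the library's total gene count, on the usual CPM scale) in the controls and 8.18 and 9.98 CPM in the knockdown. Cardiomyocyte markers summed to between 53541 and 58882 CPM, and the smallest count among the 9 found was 5729. Fibroblast markers summed to 12048 and 13079 CPM in controls and to 9170 and 9712 CPM in the knockdown. Col1a1 was the 1 marker of 7 tested that was called lower (edgeR adjusted p = 0.00339), beside 3.41% of all genes called in either direction. Log2 fold changes below 0 were found in 6 of these 7 markers, and also in 8 of 9 cardiomyocyte, 5 of 6 endothelial and 10 of 12 proliferation markers. They were found in only 2 of 7 macrophage and leukocyte and 1 of 6 smooth muscle and pericyte markers, beside 50.5% of all genes tested. Smooth muscle and pericyte markers summed to 4636 and 4705 CPM in controls and to 4988 and 5437 CPM in the knockdown. Most of this was Acta2 alone, with 3990 and 4051 CPM in controls and 4373 and 4797 CPM in the knockdown. None of the 6 smooth muscle and pericyte markers was called by edgeR, beside 3.41% of all genes, so little can be read from so few. Endothelial (119 to 145 CPM) and macrophage sums (418 to 584 CPM) overlapped. Col1a2, a defining fibroblast gene, was listed at 0 in every library, so a 0 in these tables does not show that a gene is silent. The part of these differences in cell type markers in the Polycomb results was not tested. In a mixed culture, fewer cells of a type, less RNA per cell and fewer ribosomes per RNA cannot be told apart. Only footprints were counted, so for every gene here mRNA level and ribosome loading per mRNA cannot be separated.

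Rnf2 was high in both knockdown libraries and low in both controls. It had 242 and 129 footprints in control replicates 1 and 2, and 535 and 689 in siCpeb4 replicates 1 and 2. These counts correspond to 41.3 and 36.3 CPM in controls and to 109 and 117 CPM after the knockdown. The groups did not overlap, and the lower knockdown library stood 2.65-fold above the higher control. The fitted change was 2.84-fold, a log2 fold change of 1.504 ± 0.12 (SE, n = 2 per group). Replicates were much closer to each other than the groups were, with a ratio of 1.14 between the controls and of 0.939 between the knockdown libraries. By size of log2 fold change Rnf2 stood 11th from the top among the 11335 genes that passed the low-count filter.

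Ring1, the other catalytic subunit of PRC1, gave similar values in all 4 libraries. It measured 23.9 and 22.5 CPM in controls and 24.1 and 25.4 CPM in the knockdown, with a log2 fold change of 0.06 ± 0.17. The lower knockdown library lay 1.01-fold above the higher control. The ratio of Rnf2 to Ring1 footprints is given as a description, since Rnf2 was picked by its rise in this comparison. There were 1.73 Rnf2 footprints per Ring1 footprint in control replicate 1 (95% exact interval 1.40 to 2.14) and 1.61 in control replicate 2 (1.21 to 2.16). The knockdown libraries had 4.53 (3.71 to 5.58) and 4.59 (3.84 to 5.52). All such intervals cover counting error only. Coding lengths were not used here, so the ratio says nothing about which protein is made more. A change of the ratio between libraries does not depend on length.

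**Figure D1:**
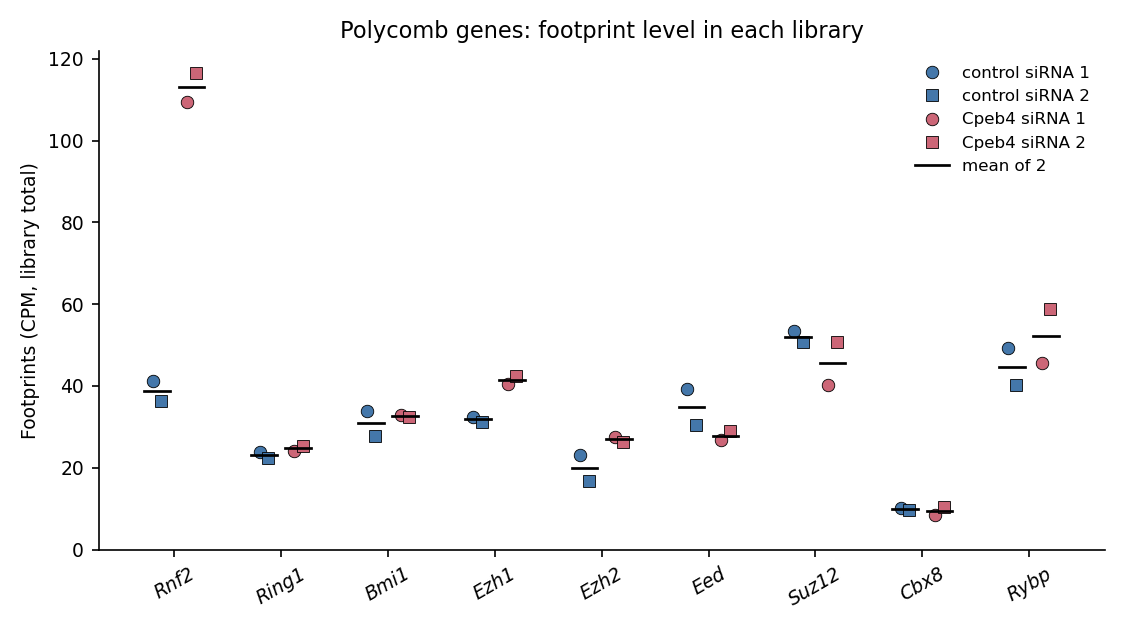
Footprint level (CPM scaled to the library total, linear axis from 0) of each of the 9 Polycomb genes in the 4 libraries, with black bars for the mean of the 2 libraries of a group. Rnf2 lies at 36.3 to 41.3 CPM in controls and 109 to 117 CPM after Cpeb4 siRNA, while the groups of the other 8 genes lie close together or overlap.

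The partners of RNF2 in PRC1 gave much smaller differences. Bmi1, a PCGF subunit of canonical PRC1, measured 33.9 and 27.9 CPM in controls and 32.9 and 32.5 CPM in the knockdown, so that both knockdown libraries fell between the controls. Its log2 fold change was 0.04 ± 0.16, and there were 1.22 and 1.303 Rnf2 footprints per Bmi1 footprint in controls against 3.32 and 3.59 in the knockdown. Cbx8, a chromodomain protein that reads methylated lysine 27, was sparsely covered, with 60 and 34 counts in controls and 41 and 61 in the knockdown. Its CPM of 10.2 and 9.57 against 8.39 and 10.3 overlapped, with a log2 fold change of -0.11 ± 0.26.

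Rybp, which takes the place of the CBX subunit in variant PRC1, measured 49.3 and 40.2 CPM in controls and 45.6 and 58.9 CPM in the knockdown. The groups overlapped and the log2 fold change was 0.18 ± 0.15. Its paralogue Yaf2 measured 21.3 and 16.6 CPM in controls and 25.6 and 22.7 CPM in the knockdown (log2 fold change 0.29 ± 0.19). There were 2.31 and 2.42 Rybp footprints per Yaf2 footprint in controls and 1.78 and 2.60 in the knockdown, which overlap.

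The 4 core genes of PRC2 differed little between the groups, and none of them was called. Both methyltransferase genes had higher values in both knockdown libraries. Ezh1, the form typical of non-dividing cells, measured 32.4 and 31.2 CPM in controls and 40.5 and 42.5 CPM in the knockdown, with a log2 fold change of 0.35 ± 0.14. Ezh2, the form typical of dividing cells, measured 23.0 and 16.9 CPM in controls and 27.6 and 26.4 CPM in the knockdown, with a log2 fold change of 0.38 ± 0.18. The controls of Ezh2 differed from each other 1.36-fold, about as much as the groups did. The number of Ezh1 footprints per Ezh2 footprint overlapped between groups, at 1.41 and 1.85 in controls and 1.47 and 1.61 in the knockdown. Sums of the markers of proliferating cells also overlapped, at 645 and 627 CPM in controls and 597 and 683 CPM in the knockdown. Taken singly, 5 of these 12 markers did not overlap between the groups (41.7%, beside 46.0% of all genes tested). Whether cell division has a part in the Ezh1 or Ezh2 values was not tested. Of the 12 proliferation markers edgeR called 0, and 0 had an unadjusted edgeR p under 0.05. Among all genes tested, 3.41% were called and 1824 of 11335 had such a p.

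Eed and Suz12 pointed the other way. Eed measured 39.2 and 30.4 CPM in controls and 26.8 and 28.9 CPM in the knockdown, with a log2 fold change of -0.37 ± 0.16. The groups did not overlap, but control replicate 2 lay nearer to the knockdown libraries than to control replicate 1. Suz12 measured 53.4 and 50.6 CPM in controls. In the knockdown it was 40.3 CPM in replicate 1 and 50.8 CPM in replicate 2, a library that lay within the control range. Its log2 fold change was -0.22 ± 0.14. Summed over Ezh1, Ezh2, Eed and Suz12, the level was 139 ± 13.3 CPM in controls and 142 ± 9.44 CPM in the knockdown (SD, n = 2).

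In the test of all genes (edgeR, adjusted p under 0.05), Rnf2 was the 1 member called of 9, beside 3.41% of the 11335 genes tested. The rule that formed the set used this comparison, so nothing is read from that count. Among the other 8, edgeR, DESeq2 and limma-voom each called 0, and 2 had an unadjusted edgeR p under 0.05, beside 1824 of the 11335 genes. DESeq2 gave no adjusted p to Cbx8 and so could not call it. All 8 differed by less than 1.5-fold. The groups did not overlap in 5 of the 9 members, beside 46.0% of all genes tested. Without Rnf2 the summed level of the 8 genes was 247 ± 25.5 CPM in controls and 261 ± 20.7 CPM in the knockdown (SD, n = 2).

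**Figure D2:**
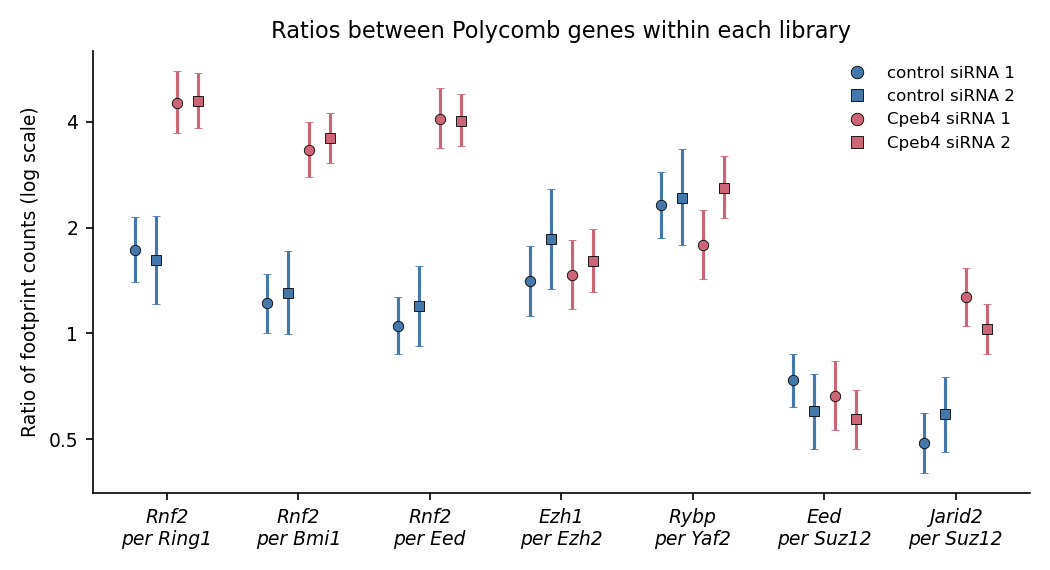
Ratio of footprint counts between pairs of Polycomb genes in each library (log axis), with exact 95% intervals for counting error as bars. Rnf2 per Ring1 is 1.61 to 1.73 in controls and 4.53 to 4.59 after Cpeb4 siRNA, whereas Ezh1 per Ezh2 overlaps between the groups.

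The rest of the Polycomb machinery was examined with 5 lists of further subunits, cofactors and opposing enzymes. Of 63 listed genes 59 were found and 54 passed the low-count filter. One gene was called higher and none lower, which is 1.85% of those tested, beside 3.41% of all genes. The median log2 fold change was 0.12, against -0.00 over all genes. Values above 0 were found in 35 of the 54 genes (64.8%, beside 49.5% of all genes), and 9 had an unadjusted edgeR p under 0.05, beside 1824 of the 11335 genes tested. These shares over all genes, 3.41% called and 46.0% without overlap among them, are the background for each list below. The groups did not overlap in 57.4% of these genes, beside 46.0% of all.

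The gene called was Jarid2, a PRC2 cofactor that helps bring the complex to its targets and is known for its role in heart development. Jarid2 (ENSRNOG00000045918) had 153 and 106 footprints in controls and 250 and 309 in the knockdown. Its level was 26.1 and 29.8 CPM in controls and 51.1 and 52.3 CPM in the knockdown, with no overlap. Mean levels were 28.0 ± 2.64 and 51.7 ± 0.808 CPM (SD, n = 2). Jarid2 thus rose 1.83-fold, with a log2 change of 0.87 ± 0.14 in the fit (edgeR adjusted p = 0.000839). The call held in every alternative fit and with each library left out, where the highest adjusted p was 0.027, without control replicate 1 (edgeR). Chosen for comparison after its value was seen, Jarid2 had 0.489 and 0.589 footprints per Suz12 footprint in controls, against 1.27 and 1.03 in the knockdown. Suz12 itself was lower in siCpeb4 replicate 1. Per Ezh2 footprint the values were closer, at 1.13 and 1.77 in controls and 1.85 and 1.98 in the knockdown, and the interval of control replicate 2 (1.28 to 2.47) covers both knockdown values.

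The other PRC2 genes tested were not called. Mtf2, a Polycomb-like protein that binds CpG-rich DNA, measured 10.1 and 10.7 CPM in controls and 12.5 and 14.9 CPM in the knockdown (log2 fold change 0.38 ± 0.23, edgeR adjusted p = 0.456). Aebp2, a zinc finger protein found with JARID2 in the same form of PRC2, measured 29.7 and 31.8 CPM against 33.1 and 36.5 CPM (0.16 ± 0.15, edgeR adjusted p = 0.67). Phf1, Phf19 and Rbbp4 had log2 fold changes between -0.25 and 0.31. Rbbp7, a histone-binding subunit shared with other chromatin complexes, had 389 and 397 CPM in controls and 403 and 409 CPM in the knockdown.

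**Figure D3:**
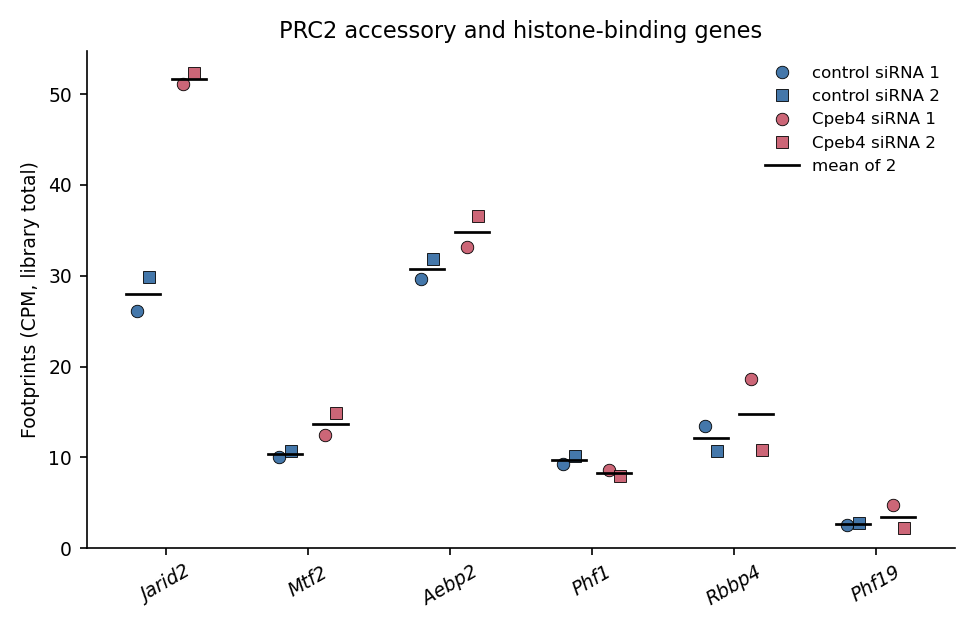
Footprint level (CPM scaled to the library total, linear axis from 0) of 6 PRC2 genes outside the 4-gene core in each library, with black bars for the mean of the 2 libraries of a group; Rbbp7 is left out because of its higher level. Jarid2 lies at 26.1 to 29.8 CPM in controls and at 51.1 to 52.3 CPM after Cpeb4 siRNA.

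Of 8 canonical PRC1 genes tested beyond the members, none was called by edgeR, DESeq2 or limma-voom. Among those named here, DESeq2 gave no adjusted p to Cbx2. Of these 8, 3 had an unadjusted edgeR p under 0.05, beside 3.41% called and 1824 of 11335 with such a p among all genes. Cbx6, a paralogue of Cbx8, measured 107 and 107 CPM in controls and 84.9 and 83.7 CPM in the knockdown, and its log2 change was -0.37 ± 0.11 (edgeR adjusted p = 0.0774). The polyhomeotic gene Phc3, whose protein links PRC1 complexes to each other, measured 45.0 and 56.6 CPM against 37.8 and 36.4 CPM (-0.47 ± 0.15, edgeR adjusted p = 0.0853). Scmh1, a partner of the polyhomeotic proteins, had 29.3 and 28.98 CPM in controls and 38.2 and 43.0 CPM in the knockdown (0.45 ± 0.15, edgeR adjusted p = 0.105). In each of these 3 genes the groups did not overlap, as in 46.0% of all genes. Cbx2 had a log2 fold change of 0.45 ± 0.27, and Cbx7, with 2 to 5 counts per library, was too sparse to test. Cbx6 gave 66.2% and 64.2% of the CBX footprints in controls and 58.7% and 58.6% in the knockdown, before any correction for length.

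None of the 24 variant PRC1 genes tested was called by edgeR, DESeq2 or limma-voom, and 3 had an unadjusted edgeR p under 0.05. Among those named here, DESeq2 gave no adjusted p to Pcgf3 and Pcgf6. Tfdp1, the dimer partner of E2F factors, had a log2 change of 0.47 ± 0.15 (edgeR adjusted p = 0.0951). The DNA-binding scaffold Mga had one of 0.32 ± 0.12 (edgeR adjusted p = 0.18), and Pcgf3, a paralogue of Bmi1, one of -0.67 ± 0.25 (edgeR adjusted p = 0.177). Pcgf3 measured 11.9 and 12.1 CPM in controls and 8.18 and 7.28 CPM in the knockdown. The other PCGF genes tested had log2 fold changes of 0.10 ± 0.15 for Pcgf5, 0.46 ± 0.30 for Pcgf6 and -0.14 ± 0.20 for Pcgf2, which was listed with canonical PRC1. Bmi1 made up 31.2% and 29.4% of the PCGF footprints in controls and 32.3% and 30.9% in the knockdown, again without correction for length.

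Enzymes that remove the Polycomb marks were not called either. Of 13 genes of H2A deubiquitination tested, none was called by edgeR, DESeq2 or limma-voom and 2 had an unadjusted edgeR p under 0.05. Among those named here, DESeq2 gave no adjusted p to Foxk2. Asxl2, a partner of the deubiquitinase BAP1, measured 23.4 and 31.0 CPM in controls and 37.6 and 41.8 CPM in the knockdown (log2 fold change 0.55 ± 0.16, edgeR adjusted p = 0.0699). Usp16, an H2A deubiquitinase, measured 28.7 and 27.3 CPM against 17.8 and 23.5 CPM (-0.46 ± 0.18, edgeR adjusted p = 0.189). Foxk2, a forkhead protein that binds BAP1, had a log2 change of 0.39 ± 0.21 (edgeR adjusted p = 0.378). The H3 lysine 27 demethylases Kdm6b (0.23 ± 0.13) and Kdm6a (0.16 ± 0.15) had edgeR adjusted p of 0.416 and 0.657.

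**Figure D4:**
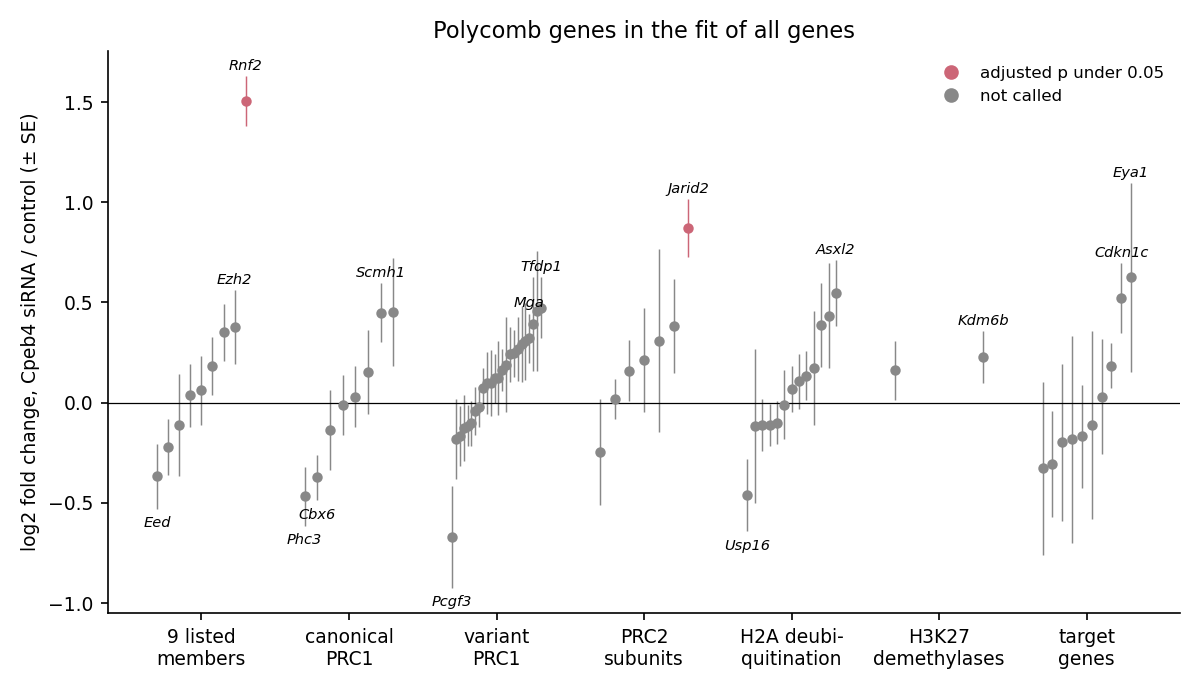
Log2 fold change of Cpeb4 siRNA over control with its SE for each tested gene, by list, sorted by value within a list; red points passed an edgeR adjusted p under 0.05 over all genes. Rnf2 at 1.504, which the choice of genes rests on, and Jarid2 at 0.87 are the red points, and the other genes lie on both sides of 0. Of the 54 further Polycomb genes, Jarid2 among them, 35 lie above 0 (64.8%, beside 49.5% of all genes tested).

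Genes long known as Polycomb targets were barely covered. The list held 56 symbols, the Hox genes among them, of which 38 were listed at 0 in every library and 10 passed the low-count filter. None of the 10 was called by edgeR or limma-voom, 1 had an unadjusted edgeR p under 0.05, and the median log2 fold change was -0.14. DESeq2 called none either, but it gave no adjusted p to Eya1. Low counts may have left others of the 10 without one, so little can be read from DESeq2 here. Cdkn1c, a cell cycle inhibitor, measured 21.5 and 22.2 CPM in controls and 35.4 and 28.8 CPM in the knockdown (log2 fold change 0.52 ± 0.17, edgeR adjusted p = 0.109). Gata6, a cardiac transcription factor, had a log2 change of 0.18 ± 0.11 (edgeR adjusted p = 0.45), and Eya1, a developmental cofactor, one of 0.63 ± 0.47 (edgeR adjusted p = 0.564). Most of the list had too few footprints to compare, and whether the 0s come from depth, from the counting annotation or from the cells was not tested.

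The genes beside Rnf2 on its chromosome were few, and their counts of calls can show little beside the 3.41% called among all genes. Of the 3 nearest protein-coding genes on each side in the RefSeq table of the assembly GRCr8, 5 were found in the count tables. None was called by edgeR, DESeq2 or limma-voom, while 1 had an unadjusted edgeR p under 0.05. DESeq2 gave no adjusted p to Swt1. Trmt1l, the nearest gene on one side, which encodes a tRNA methyltransferase-like protein, measured 33.3 and 29.3 CPM in controls and 33.5 and 32.8 CPM in the knockdown. Fam129a, the nearest on the other side and named Niban1 by RefSeq, measured 70.6 and 75.7 CPM in controls and 55.2 and 58.2 CPM in the knockdown, and its log2 change was -0.39 ± 0.12 (edgeR adjusted p = 0.0881). Swt1 (-0.19 ± 0.27), Ivns1abp (0.09 ± 0.12) and Edem3 (-0.06 ± 0.12) overlapped between the groups.

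The genes whose pattern over the 4 libraries came closest to that of Rnf2 were Wrb, Ttr, LOC100911769, Car12 and Golm1, described here without a test since they were picked for that pattern. Likeness was the root mean square difference of log2 CPM after each gene was centred on its own mean, and these 5 differed from Rnf2 by 0.08 to 0.17. Wrb, a receptor subunit for tail-anchored proteins, measured 11.9 and 9.85 CPM in controls and 27.6 and 30.1 CPM in the knockdown. Golm1, a Golgi membrane protein, measured 47.4 and 48.4 CPM against 125 and 110 CPM. Ttr, LOC100911769 and Car12 had 3 to 11 counts in control libraries and 12 to 27 in knockdown libraries, so that their likeness is loosely determined. The members nearest to Rnf2 were Ezh2 and Ezh1, at 0.55 and 0.58, and Eed was the most distant, at 0.92. Among all genes tested, Ezh2 and Ezh1 ranked 647th and 857th in likeness to Rnf2, so many other genes came closer.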

How the data were processed

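The deposited files hold raw footprint counts per Ensembl gene, 1 library each, with no normalisation by the authors. Per the submitters' processing notes, Bowtie2, STAR 2.7, HTSeq 0.12 and the assembly Rnor_6.0 were used; their roles and the strand setting are not given in the sources used here, so genes overlapping others, or with near-identical copies, are uncertain. Per the file names, counted reads were 29 to 34 nt long, but 29 to 33 nt in siCpeb4 replicate 2. The 5 HTSeq summary rows were left out; reads without a feature were 4.42% to 4.63% of each library. Counts were tested in edgeR 4.0.16 (R 4.3.3; quasi-likelihood F-test, TMM, filterByExpr with a minimum count of 10, group as the only term, two-sided, Benjamini-Hochberg over 11335 genes, threshold 0.05), with DESeq2 1.42.0 and limma 3.58.1 (voom) as alternatives. SEs were derived from the F statistic. DESeq2 gave no adjusted p to some genes with few counts and could not call them. The workflow was tested on simulated data. CPM used library totals; likeness to Rnf2 used TMM-scaled log2 CPM with a prior count of 2. Ratio intervals are exact binomial at 95%.

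Members, lists and tests were chosen with earlier results of these data known. Named were Cpeb4, the members, their paralogues, the neighbours of Rnf2 and the 5 genes most like it. From each list the called genes or the 3 with the smallest p were named. Phf1, Phf19, Rbbp4, Rbbp7, Col1a1, Col1a2, Acta2 and the 3 Hox genes were added after their values were seen. Some items are not reported here. Missing symbols were matched through RefSeq synonyms. The planned shares per codon could not be computed without coding lengths, so raw shares are given. Replicates differed by more than sampling noise (chi-square per degree of freedom of 2.91 in controls and 5.12 in the knockdown).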

Additional observations from a re-analysis of the deposited data

How the results depend on the processing

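Over all genes, 386 were called, against 606 without the low-count filter, 192 in DESeq2, 629 at an adjusted p under 0.10, and 212 to 318 with 1 library left out. Of the 54 further Polycomb genes tested 1 was called, beside 386 of 11335 genes. Without the low-count filter it was 3 of 58 (Jarid2, Asxl2 and Phc3), beside 606 of 14513. At an adjusted p under 0.10 it was 5 of 54 (with Cbx6 and Tfdp1 as well), beside 629 of 11335. With 1 library left out, Jarid2 stayed called and another gene joined it in some fits. Those added there were Phc3 without control replicate 1 (edgeR adjusted p = 0.047), Asxl2 without control replicate 2 (0.028) and Mga without siCpeb4 replicate 1 (0.039). Among the neighbours of Rnf2, 1 was called at an adjusted p under 0.10, Fam129a. The causes of these differences were not tested. The log2 fold change of Rnf2 ranged from 1.43 to 1.60 over the 15 alternatives, a description only, since Rnf2 was picked by its rise in this comparison. Bmi1, Cbx8 and Rybp changed sign when 1 library was left out, with ranges of -0.07 to 0.19, -0.26 to 0.01 and -0.005 to 0.34, and Ezh2 ranged from 0.21 to 0.64 and Eed from -0.51 to -0.16. These fits take the spread of the group with a single remaining library from the other group.

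The replicate block, which adds the replicate number to the model, gave 403 calls and changed no call of a named gene. Deviations of same-numbered libraries correlated at -0.11 across genes, so the numbers are not shown to pair the samples. A crossed replicate block, chosen after seeing the data, gave 481 calls. Low counts limit what can be said of Cbx8 and Cbx7.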

Other observations

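Of the Hox genes listed, 3 had any footprints. Hoxb2 had 4 and 2 footprints in controls and none in the knockdown libraries, and Hoxb3 had 5 and 1 in controls against 0 and 1 in the knockdown. Hoxd8 had 1 in each control and none in the knockdown. These genes had too few footprints for a comparison of the groups.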
